A study of Mus musculus with 2 samples.

Results

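The semaphorins, plexins, neuropilins, ephrins, Eph receptors, Slits, Robos, netrins and netrin-Gs are families of ligands and receptors first described for the steering of growing axons. They were taken here by their gene symbols, which gave 66 genes of the 50559 listed in the deposited count files. The RNA came from live GFP-positive cells sorted from enzymatically digested dorsal skin of mice of the genotype Polr2b f/f-GFP; K14-Cre at postnatal day 21, when follicles rest in telogen. Polr2b encodes a core subunit of RNA polymerase II, and the Cre is driven by the keratin 14 promoter, which is active in basal epidermis and in the follicle lineage. All libraries carry this genotype, and no library without Cre was used here. The series has 1 group of 2 replicate libraries, with 36692204 counts in replicate 1 and 33489967 counts in replicate 2. The labels do not say whether these came from separate animals. The sex-linked RNA given below shows that no single animal gave both libraries. Its stated purpose was to set steady-state RNA beside nascent RNA, which was not analysed here.

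Guidance ligands act over short or long range. Class 3 semaphorins, Slits and netrins are secreted, whereas class 4 to 6 semaphorins and ephrin-B proteins span the membrane, and Sema7a, ephrin-A proteins and netrin-Gs are held by a lipid anchor. Plexins are the semaphorin receptors, and most class 3 semaphorins bind them through a neuropilin co-receptor. Eph receptors are tyrosine kinases that meet ephrins on the neighbouring cell, so that signals run into both cells. In skin these families are known for keratinocyte contact and migration, for vessels and for the innervation of the follicle.

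Levels of different genes are given as TPM, which are counts scaled by the deposited gene length and by the library. A deposited length longer than the transcript these cells made lowers the TPM of a gene. The deposited length was more than 2 times the longest coding transcript of GENCODE release M21 for Sema6a, Epha10, Epha6, Sema6d, Ntng1, Nrp1, Robo2, Robo1, Efnb2, Epha5 and Sema3a. A gene is compared between the libraries as CPM, which is its count scaled to a common total. A mean is followed by the SD of the 2 libraries (n = 2). A two-sided sign-flip test on 2 libraries cannot give a p below 0.5, so levels carry no p-value.

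Most guidance genes were present. Of the 66 genes, 55 (83.3%) reached 1 CPM in both libraries, beside 31.3% of all genes listed and 61.4% of the 21722 genes with a RefSeq protein-coding symbol. At 10 CPM in both libraries the count was 39 (59.1%), beside 42.2% of those protein-coding genes. The 66 genes together held 1697 TPM in replicate 1 and 1863 TPM in replicate 2. Receptors took 52.8% of that sum in replicate 1 and 57.0% in replicate 2, membrane-bound ligands 33.6% and 31.4%, and secreted ligands 13.6% and 11.6%. The 11 genes that did not reach 1 CPM in both libraries were Sema4f, Sema5b, Ntn3, Ntn5, Ntng1, Robo3, Epha5, Epha6, Epha7, Epha8 and Epha10. All but Epha6 had at least 1 count in each library.

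**Figure D1:**
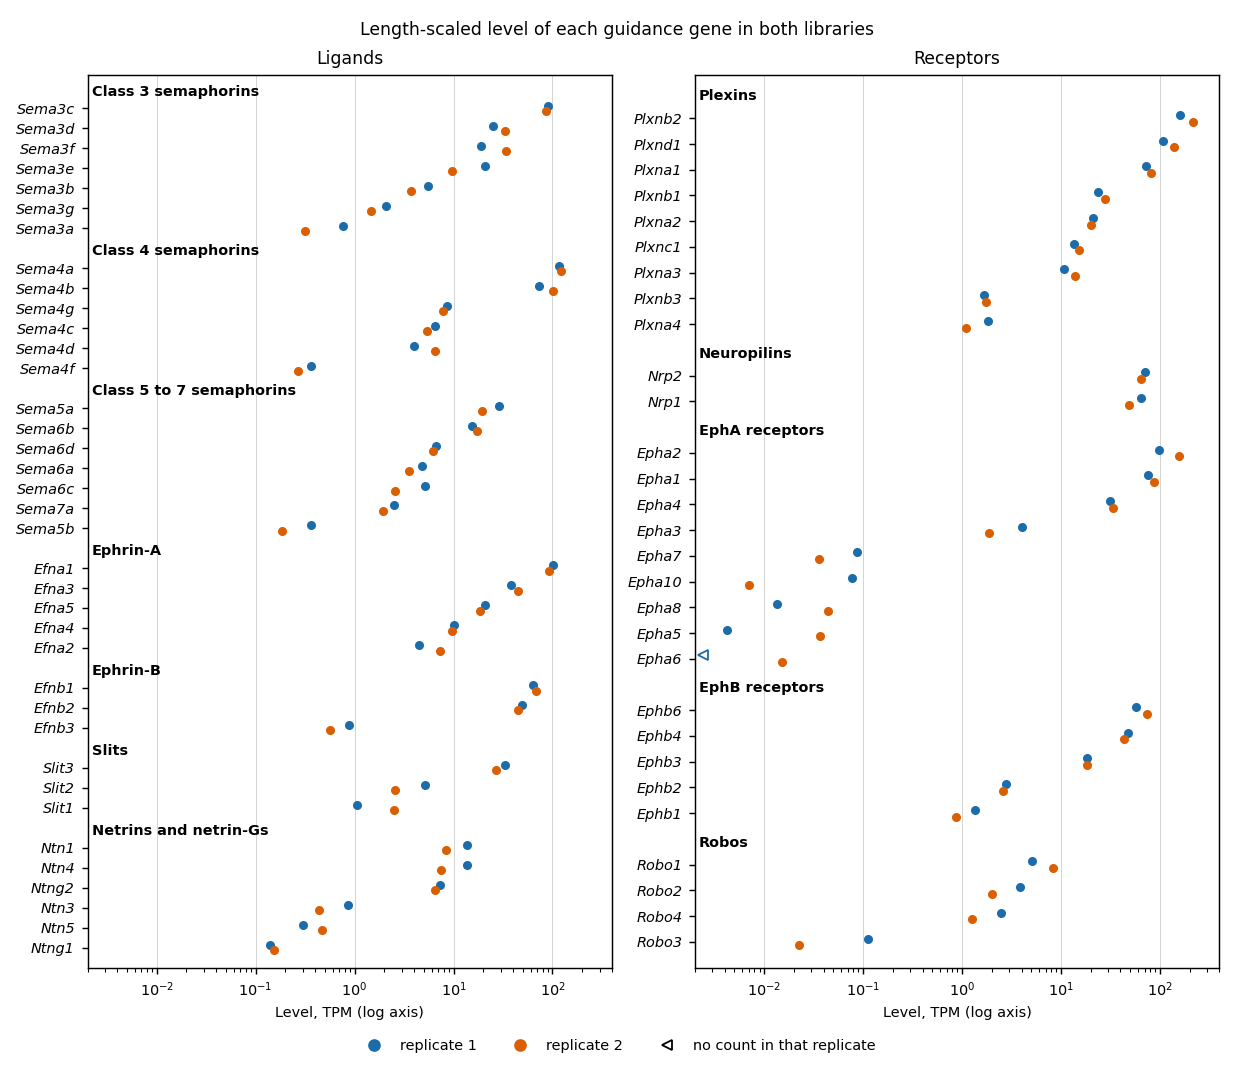
Level in TPM (log axis) of each of the 66 guidance genes, with ligands on the left, receptors on the right and 1 point per library. Most classes span more than 10-fold, and the EphA receptors split into 4 genes above 1 TPM and 5 genes below 0.1 TPM in both libraries.

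The sorted fraction was labelled as keratinocytes. All 10 basal epidermal markers reached 1 CPM in both libraries and gave a sum of 11881 CPM in replicate 1, against 16149 CPM in replicate 2. All 10 fibroblast markers did too, with sums of 13262 and 6588 CPM, and all 10 macrophage and dendritic cell markers, with sums of 7134 and 7787 CPM. The 10 endothelial markers summed to 654 and 279 CPM, mostly from Lyve1, which macrophages also express, at 572 and 221 CPM. The 8 neuron markers summed to 4.66 and 3.82 CPM, of which Prph, at 2.15 and 1.67 CPM, alone reached 1 CPM in both libraries, and Snap25 had no count. Xist had 112587 counts in replicate 1 and 11 in replicate 2. Of the transcripts made from the Y chromosome, Uty had 0 and 2394 counts, Ddx3y 0 and 1618, Kdm5d 0 and 1113, and Eif2s3y 1 and 1378. The sex-linked RNA was thus that of female cells in replicate 1 and of male cells in replicate 2. No single animal therefore gave both libraries. In bulk RNA, fewer cells of a type and less RNA per cell cannot be told apart, and the cells that made each guidance transcript were not identified.

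The class 3 semaphorins were led by Sema3c, a secreted ligand of neuropilins, at 90.4 TPM in replicate 1 and 85.2 TPM in replicate 2. It held 55.2% and 50.9% of the summed level of the 7 genes. Sema3d stood at 24.9 and 33.0 TPM and Sema3f, the ligand of Nrp2, at 19.2 and 34.0 TPM. These ranges overlap, so the order of Sema3d and Sema3f is not resolved. Sema3e, which binds plexin D1 without a neuropilin, had 20.9 TPM in replicate 1 and 9.73 TPM in replicate 2. Sema3a, the founding axon repellent of the class, was lowest at 0.757 and 0.313 TPM. The other members, Sema3b and Sema3g, lay between 1.48 and 5.58 TPM.

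Class 4 held the most abundant semaphorin transcript. Sema4a, a transmembrane ligand known from immune cells, had 117 TPM in replicate 1 and 121 TPM in replicate 2, and Sema4b had 73.2 and 101 TPM. The range of Sema4b took in that of Sema3c, so their order is not resolved. Sema4a and Sema4b both stood far above the next member, Sema4g, at 8.60 and 7.85 TPM. Sema4d, the ligand of plexin B1 and plexin B2, had 3.99 and 6.48 TPM, which overlapped the range of Sema4c at 6.46 and 5.39 TPM. Sema4f was lowest at 0.364 and 0.267 TPM and did not reach 1 CPM.

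Among the class 5 to 7 semaphorins, Sema5a, which carries thrombospondin repeats outside the cell, was highest at 29.1 TPM in replicate 1 and 19.5 TPM in replicate 2. Sema6b followed at 15.4 and 17.2 TPM and Sema6d at 6.62 and 6.27 TPM. In CPM Sema6d had 54.5 and 51.5 beside 28.3 and 31.7 for Sema6b, so this order rests on length. The deposited length of Sema6d is 3.16 times the longest coding transcript of GENCODE. Sema6a had 64.3 and 47.3 CPM but only 4.76 and 3.51 TPM, at a deposited length of 33447 bases, which is 4.88 times that GENCODE transcript. Sema7a, the anchored ligand of plexin C1, had 2.48 and 1.92 TPM, and Sema5b was lowest at 0.362 and 0.185 TPM.

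Ephrin-A transcripts were led by Efna1, the preferred ligand of Epha2, at 102 TPM in replicate 1 and 92.9 TPM in replicate 2. Efna3 had 38.03 and 44.9 TPM and Efna5 had 20.8 and 18.5 TPM. Efna1, Efna3 and Efna4 are direct neighbours on chromosome 3 in the RefSeq gene order, and Efna4 stood lower, at 10.2 and 9.57 TPM. Efna2 was lowest at 4.47 and 7.27 TPM. All 5 ephrin-A genes reached 1 CPM in both libraries.

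Of the ephrin-B genes, Efnb1 had 63.3 TPM in replicate 1 and 67.5 TPM in replicate 2. Efnb2, the ligand of Ephb4 that marks arteries in vessels, had 49.3 and 44.6 TPM. Efnb3, known mainly from the nervous system, stood at 0.875 and 0.563 TPM, with 58 and 34 counts. The ephrin-B sum is therefore almost wholly that of Efnb1 and Efnb2.

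Slit and netrin transcripts were scarcer than semaphorins and ephrins. Slit3 had 32.9 TPM in replicate 1 and 26.7 TPM in replicate 2, which was 84.1% and 84.0% of the summed Slit level. Slit2 had 5.19 and 2.58 TPM and Slit1 had 1.05 and 2.53 TPM, so Slit2 stood above Slit1 in replicate 1 and about level with it in replicate 2. Ntn1, the ligand of Dcc and Unc5 receptors, had 13.7 and 8.49 TPM, and Ntn4, a laminin-binding netrin of basement membranes, had 13.7 and 7.53 TPM. Ntn1 and Ntn4 cannot be ranked in TPM, and this closeness rests on length. The deposited length is 0.661 times the GENCODE transcript for Ntn4 and 0.977 times for Ntn1. In CPM Ntn1 had 31.6 and 19.6 beside 13.4 and 7.32 for Ntn4. Ntng2 had 7.33 and 6.43 TPM, whereas Ntn3 and Ntn5 lay between 0.303 and 0.852 TPM, with Ntng1 lowest at 0.141 and 0.155 TPM.

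With the semaphorins split by class, plexins were the class with the highest summed level, at 412 TPM in replicate 1 and 518 TPM in replicate 2. Plxnb2, a receptor of class 4 semaphorins, was the most abundant of all 66 genes at 160 and 216 TPM. Plxnd1, the receptor of Sema3e, followed at 107 and 140 TPM, and Plxna1, which pairs with neuropilins, at 72.0 and 81.3 TPM. The ranges of these 3 plexins did not overlap. Their RNAs stood above Plxnb1 at 23.7 and 28.2 TPM and Plxna2 at 21.0 and 20.2 TPM. Plxnb3 at 1.65 and 1.77 TPM and Plxna4 at 1.83 and 1.11 TPM were the lowest plexins, with overlapping ranges. Plxnc1, the receptor of Sema7a, and Plxna3 lay between 10.8 and 15.4 TPM. Of the plexin co-receptors, Nrp2 had 70.8 and 64.8 TPM. Nrp1, which also binds VEGF, had 64.6 and 49.0 TPM below Nrp2 in both libraries. This order rests on the deposited lengths, which are 2.71 times the GENCODE transcript for Nrp1 and 1.21 times for Nrp2, and in CPM Nrp1 had 254 and 192 beside 232 and 212 for Nrp2.

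The EphA receptors fell into separate ranges of level. Epha2, a receptor known from epithelial cells, had 97.3 TPM in replicate 1 and 155 TPM in replicate 2. Epha1 had 76.6 and 87.7 TPM and Epha4, which binds ephrins of both classes, had 31.0 and 33.7 TPM. Epha3 was lower, at 4.04 and 1.89 TPM. In contrast, Epha7, Epha10, Epha8, Epha5 and Epha6 had 16, 12, 1, 1 and 0 counts in replicate 1 and 6, 1, 3, 8 and 3 counts in replicate 2. The absence of a count for Epha6 in replicate 1 allows up to 0.0818 CPM. Exons of Epha1 and of Zyx overlap on opposite strands over 6.01% of the Epha1 exons, and with a strand setting not given in the sources used here, reads of the shared exons cannot be assigned to either gene. Zyx had 8906 and 7910 counts, beside 3797 and 3961 for Epha1.

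The 250 bases before the RefSeq start site are printed for 4 EphA genes, with CG dinucleotides in capitals, because the abundant and the near-silent members differ in level by more than 1000-fold. Epha2 and Epha1 are the 2 most abundant members, and Epha5 and Epha8 are 2 of the members near 0.
Epha2 (GRCm38.p6, chr4:141300971-141301220, plus strand): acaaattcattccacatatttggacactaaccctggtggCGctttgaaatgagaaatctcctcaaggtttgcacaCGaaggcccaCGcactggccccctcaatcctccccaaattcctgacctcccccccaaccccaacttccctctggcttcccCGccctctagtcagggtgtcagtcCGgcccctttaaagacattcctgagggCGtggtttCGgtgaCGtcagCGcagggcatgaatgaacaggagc
Epha1 (GRCm38.p6, chr6:42373269-42373518, minus strand): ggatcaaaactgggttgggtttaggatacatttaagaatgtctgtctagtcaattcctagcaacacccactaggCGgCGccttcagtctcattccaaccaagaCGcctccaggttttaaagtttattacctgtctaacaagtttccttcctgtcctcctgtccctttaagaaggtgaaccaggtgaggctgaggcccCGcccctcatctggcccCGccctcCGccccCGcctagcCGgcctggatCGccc
Epha5 (GRCm38.p6, chr5:84417383-84417632, minus strand): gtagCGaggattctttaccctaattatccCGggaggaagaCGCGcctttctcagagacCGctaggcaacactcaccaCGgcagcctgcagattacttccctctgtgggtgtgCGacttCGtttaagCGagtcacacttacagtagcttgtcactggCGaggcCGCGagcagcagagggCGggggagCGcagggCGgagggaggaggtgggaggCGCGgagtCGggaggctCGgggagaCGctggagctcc
Epha8 (GRCm38.p6, chr4:136956817-136957066, minus strand): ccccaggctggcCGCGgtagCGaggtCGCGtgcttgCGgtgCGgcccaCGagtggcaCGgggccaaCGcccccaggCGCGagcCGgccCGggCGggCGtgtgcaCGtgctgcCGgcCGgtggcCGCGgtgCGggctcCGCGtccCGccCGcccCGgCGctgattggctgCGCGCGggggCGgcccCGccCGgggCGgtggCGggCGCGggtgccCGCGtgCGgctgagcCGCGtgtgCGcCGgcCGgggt

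In these windows the CG count was lower in the abundant EphA genes printed than in the near-silent ones. Epha2 and Epha1 held 9 CG each, while Epha5 held 20 and Epha8 held 46, the last being at the 99.7 percentile of all 32851 promoter windows. The other EphA genes lay closer together, with 14 CG for Epha4 and 16 for Epha3, and with 15 for Epha6, 17 for Epha10, and 25 and 23 in the windows of Epha7. Promoter windows were found for 58 of the 66 guidance genes, 74 windows in all since some genes have several starts, and which start these cells used is not known. Their median was 15 CG, beside 6 CG over all windows. It was 14 CG in the 62 windows of genes at 1 CPM or more and 18 CG in the 12 windows of the 11 genes below. The GC box GGGCGG, searched on both strands, occurred in 70.3% of the guidance gene windows and in 32.7% of all windows. The AP-1 motif TGANTCA, in which N is any base, occurred in 3 of the 74 windows (4.05%), beside 6.75% of all windows, and the TATA box TATAAA in 2 windows (2.70%), beside 12.4%. The cAMP response element TGACGTCA, a palindrome, occurred in 1 window, that of Epha2, beside 1.55% of all windows. The set of all windows was not limited to protein-coding genes, whereas all 66 guidance genes have a protein-coding symbol. Medians and shares over the windows of protein-coding genes alone were not computed. The part of gene type in these differences was therefore not tested. Motif matches in a window describe its letters and show no binding.

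**Figure D2:**
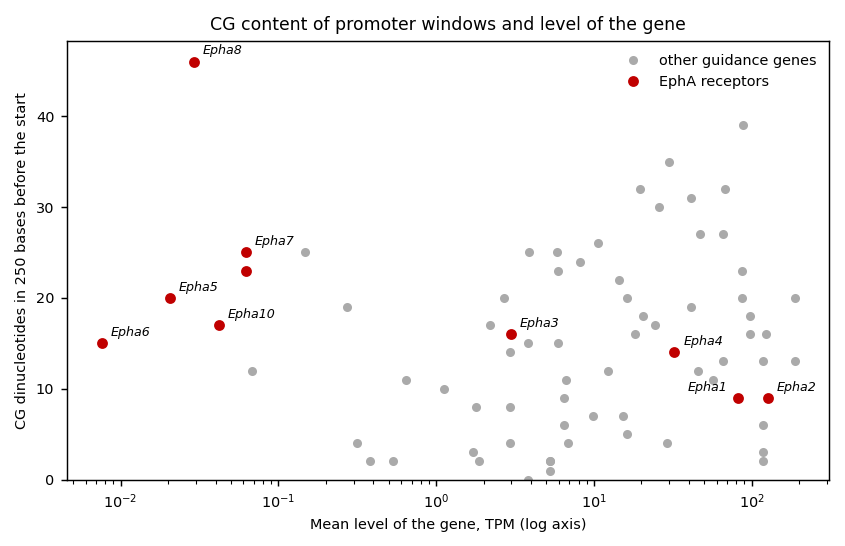
CG dinucleotides in the 250 bases before each RefSeq start against the mean level of the gene in TPM (log axis), with 1 point per window and EphA genes labelled. Of the 4 EphA genes printed, windows of Epha2 and Epha1, at 9 CG each, lie below those of Epha5 and Epha8, at 20 and 46 CG. The other EphA genes lie closer together, with Epha4 at 14 CG and Epha6, the scarcest, at 15 CG.

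Among the EphB receptors the highest transcript was that of Ephb6, whose kinase domain is inactive, at 57.9 TPM in replicate 1 and 74.6 TPM in replicate 2. Ephb4, the receptor of ephrin-B2, had 48.1 and 43.7 TPM and did not overlap Ephb6. Ephb3 had 18.3 and 18.4 TPM, and Ephb1 was lowest at 1.36 and 0.873 TPM, below Ephb2 at 2.80 and 2.61 TPM. Epha10, the other Eph receptor without kinase activity, was among the near-silent genes.

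Robo transcripts were scarce per length. Robo1, a Slit receptor, had 5.13 TPM in replicate 1 and 8.27 TPM in replicate 2, and Robo2 had 3.89 and 2.01 TPM. Robo1 and Robo2 are direct neighbours on chromosome 16 in the RefSeq gene order. Robo4, known from endothelial cells, had 2.49 and 1.26 TPM, with 148 and 68 counts, and Robo3, known from commissural axons, had 0.113 and 0.0225 TPM, with 11 and 2 counts. Summed Robo level was 11.6 TPM in each library, beside summed Slit levels of 39.1 and 31.9 TPM. Without length the order was not the same in both libraries, since Robos summed to 77.0 and 80.0 CPM and Slits to 94.7 and 74.5 CPM. The deposited lengths of Robo1 and Robo2 are 2.37 and 2.63 times the GENCODE transcripts.

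Levels of known ligand and receptor pairs can be set side by side. Efna1 at 97.4 ± 6.31 TPM stood beside Epha2 at 126 ± 40.8 TPM, and their ranges overlapped. Efnb2 at 47.0 ± 3.36 TPM stood beside Ephb4 at 45.9 ± 3.10 TPM, a difference smaller than either SD. This closeness rests on length, since the deposited length is 2.28 times the GENCODE transcript for Efnb2 and 1.00 times for Ephb4, and in CPM Efnb2 had 218 and 196 beside 84.6 and 76.8 for Ephb4. Sema3e at 15.3 ± 7.91 TPM stood below Plxnd1 at 124 ± 23.8 TPM. Sema4d at 5.24 ± 1.76 TPM stood below Plxnb2 at 188 ± 39.2 TPM and Plxnb1 at 26.0 ± 3.19 TPM. Slit3 at 29.8 ± 4.34 TPM stood above Robo1 at 6.70 ± 2.22 TPM. In CPM Slit3 had 66.3 and 53.8 beside 37.1 and 59.6 for Robo1, so without length the order turned in replicate 2. These are levels in a mixed fraction and do not place a ligand and its receptor in the same or in neighbouring cells.

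**Figure D3:**
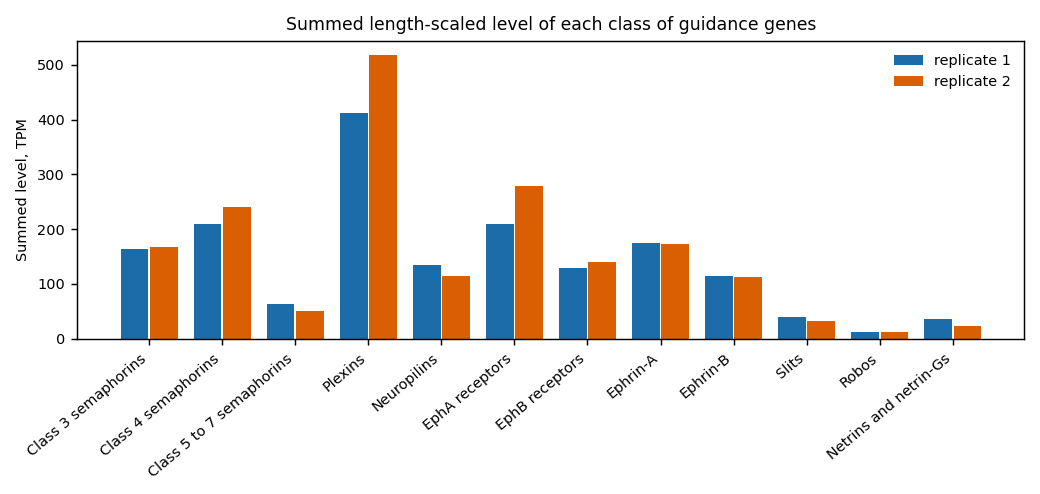
Summed level in TPM of each class of guidance genes, with a bar for replicate 1 and a bar for replicate 2. With the semaphorins split by class, plexins were highest in both libraries, at 412 and 518 TPM, and Robos lowest, at 11.6 TPM in each. In summed CPM, without length, netrins and netrin-Gs were lowest, at 53.7 and 34.5 beside 77.0 and 80.0 for Robos.

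Within families, the classes differed in summed level. Class 4 semaphorins exceeded class 3 by 0.44 ± 0.12 on the log2 scale of summed TPM, with 210 and 241 TPM against 164 and 167 TPM. B plexins exceeded A plexins by 0.94 ± 0.19, with 185 and 245 TPM for the 3 B plexins against 106 and 116 TPM for the 4 A plexins. EphB receptors lay below EphA receptors at -0.85 ± 0.20, with 128 and 140 TPM against 209 and 278 TPM. Ephrin-B genes lay below ephrin-A genes at -0.62 ± 0.0047, with 114 and 113 TPM against 175 and 173 TPM. These are values without a test, and 3 of the 4 directions depended on how the class was summed. Without the highest gene of each class, Plxnb2 and Plxna1, the B plexins lay below the A plexins at -0.32. On the mean of log2(TPM + 0.5), which gives the near-silent EphA genes equal weight, EphB lay above EphA at 1.91, and on summed CPM, without length, ephrin-B lay above ephrin-A at 0.64.

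The second comparison was of the 2 libraries with each other, as the ratio of replicate 1 over replicate 2. The counts of each gene were set against the library totals in an exact binomial test, two-sided, with Benjamini-Hochberg adjustment over all 23690 genes with 10 or more counts, at 0.05. This test compares these libraries and no conditions, and sex cannot be told apart from any other difference between them. Of the 66 guidance genes 63 were tested, and the exceptions were Epha5, Epha6 and Epha8. Past the test were 46 of the 63 (73.0%), beside 44.1% of all genes tested. Depth bears on this share: of the 54 guidance genes with 100 or more counts 44 passed (81.5%), beside 58.6% of the 13198 protein-coding genes with 100 or more counts, and the median total over both libraries was 3204.5 counts for these guidance genes and 1794 for these protein-coding genes. Higher in replicate 1 were 26 of the 63, beside 6443 of the 23690 genes tested (27.2%). Higher in replicate 2 were 20 of the 63, beside 3993 of the 23690 (16.9%). The split was 21 and 21 with TMM factors, beside 21.4% and 22.7% of all genes tested. With DESeq2 size factors it was 18 and 21, beside 21% and 23.2%. TMM and DESeq2 factors each moved all log2 ratios by -0.08. The median log2 ratio was 0.13 over the 63 genes and 0.07 over all genes tested.

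No guidance gene passed against the spread between the libraries, which edgeR put at 23.1% (common biological coefficient of variation) when it took them as replicates. That spread was estimated from the same 2 libraries that were then compared, so few calls follow from the design. A gene that did not pass is not thereby shown to be alike in both libraries. edgeR's exact test with Benjamini-Hochberg adjustment called 63 of 23690 genes (0.266%) and 0 of the 63 guidance genes. At an unadjusted p under 0.05 it held 5 of 63, beside 1672 of 23690. These were Sema3e, Sema3a, Epha3, Epha10 and Slit1. The differences described next passed a test against counting error, and none was shown to exceed the spread between libraries.

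**Figure D4:**
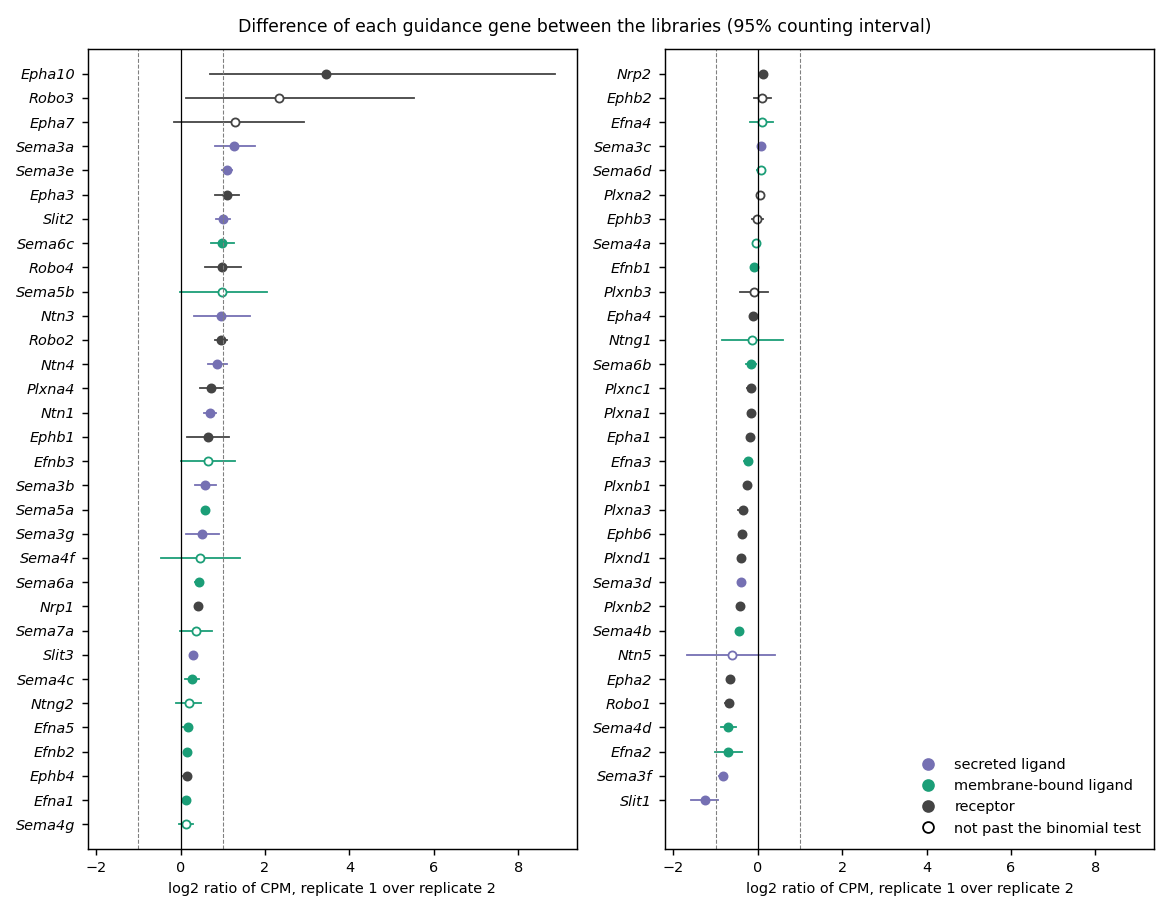
Ratio of CPM, replicate 1 over replicate 2, on a log2 scale for the 63 tested guidance genes, with exact 95% intervals that cover counting error only. Filled points passed the binomial test, dashed lines mark 2-fold, and of the filled points Sema3a, Sema3e, Epha3, Slit2 and Epha10 lie beyond 2-fold on the right and Slit1 on the left, with Robo3 and Epha7 beyond it on the right as points that did not pass.

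Past the binomial test by 2-fold or more were 5 of the 63 genes higher in replicate 1, beside 7.29% of all genes tested. In replicate 2, 1 of the 63 was higher, beside 2.2%. Both counts lie near those shares. Sema3a had 146 counts (3.98 CPM) in replicate 1 and 55 counts (1.64 CPM) in replicate 2, a 2.42-fold difference (95% interval 1.77 to 3.37). Sema3e had 2125 and 901 counts, or 57.9 and 26.9 CPM, a 2.15-fold difference (1.99 to 2.33). Both genes lie in the cluster of class 3 semaphorins on chromosome 5, where Sema3d, the direct neighbour of Sema3a, went the other way at 66.9 and 88.3 CPM. Epha3 had 9.27 and 4.33 CPM, a 2.14-fold difference (1.76 to 2.62), and Slit2 had 24.9 and 12.3 CPM, a 2.02-fold difference (1.79 to 2.27). Epha10 had 12 and 1 counts, a ratio of 10.95 with an interval from 1.62 to 468, which fixes its size poorly. Slit1 was the gene higher in replicate 2, with 128 and 280 counts, or 3.49 and 8.36 CPM, a 2.40-fold difference.

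Secreted ligands were mostly higher in replicate 1. Of 14 genes, 10 were higher in replicate 1 and 3 in replicate 2, with a median log2 ratio of 0.49, and with TMM factors 8 and 3. These and the following counts by role and list stand beside the shares over all genes tested. With library totals these shares were 27.2% higher in replicate 1 and 16.9% in replicate 2, and with TMM factors 21.4% and 22.7%. Over protein-coding genes with 100 or more counts they were 34.1% and 24.5% with library totals. Beside Sema3a, Sema3e and Slit2, Ntn4 had 13.4 and 7.32 CPM, Ntn1 had 31.6 and 19.6 CPM and Slit3 had 66.3 and 53.8 CPM. Sema3c was higher in replicate 1 only with library totals, at 181 and 170 CPM, and did not pass with TMM factors (log2 ratio 0.01). Sema3f, Sema3d and Slit1 were the secreted ligands higher in replicate 2, with Sema3f at 45.9 and 81.4 CPM, a 1.77-fold difference.

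Receptors went in both directions. Of 26 tested, 9 were higher in replicate 1 and 11 in replicate 2, with a median log2 ratio of 0.03, and with TMM factors 8 and 11. Of the 9 plexins, 6 were higher in replicate 2 and 1 in replicate 1 under each of the 3 scalings, with a median log2 ratio of -0.17. Plxnb2 had 512 and 688 CPM and Plxnd1 315 and 413 CPM, while Plxna4 had 9.29 and 5.61 CPM. Epha2 showed a 1.59-fold higher level in replicate 2, with 163 and 260 CPM. Ephb6 was higher there too, at 133 and 172 CPM. Robo1 and Robo2, the neighbours on chromosome 16, went opposite ways, with Robo1 at 37.1 and 59.6 CPM and Robo2 at 35.6 and 18.3 CPM. In replicate 1 Robo1 and Robo2 thus had nearly equal CPM, and in replicate 2 Robo1 had the higher value. The endothelial receptor Robo4 had 4.03 and 2.03 CPM, and Nrp1 had 254 and 192 CPM.

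Membrane-bound ligands were divided, with 7 of 23 higher in replicate 1 and 6 in replicate 2, or 5 and 7 with TMM factors. Sema5a had 136 and 90.9 CPM and Sema6c 9.62 and 4.84 CPM. Sema4b had 126 and 172 CPM, Sema4d 12.8 and 20.8 CPM and Efna2 3.84 and 6.24 CPM, all higher in replicate 2. Sema4a did not pass with library totals, at 214 and 220 CPM, and was called higher in replicate 2 with TMM factors (log2 ratio -0.12). Of the X-linked members, Efnb1 at 85.8 and 91.4 CPM and Plxna3 at 33.5 and 42.9 CPM were higher in replicate 2, and Plxnb3 did not pass at 4.12 and 4.39 CPM.

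Cell type markers moved between the same libraries. All 10 fibroblast markers were higher in replicate 1, at a median log2 ratio of 0.89, as were 5 of 7 tested mural markers (0.83, with 1 lower and Tagln at 0 counts in replicate 1), 6 of 10 endothelial markers (0.48) and 6 of 7 melanocyte markers (0.73). Basal epidermal markers were higher in replicate 2 for 8 of 10 genes (-0.28), and spinous markers for 7 of 8 (-0.67). Hair follicle bulge markers were mostly higher in replicate 1, with 5 of 8 genes (0.46), Sox9, Lgr5, Lhx2, Cd34 and Tcf7l1, while Krt15 was higher in replicate 2. Macrophage and dendritic cell markers were divided, with 3 in each direction (0.01). With TMM factors these counts were 10 of 10 for basal markers and 2 and 5 for macrophage and dendritic cell markers. The part of these shifts in the guidance gene differences was not tested.

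**Figure D5:**
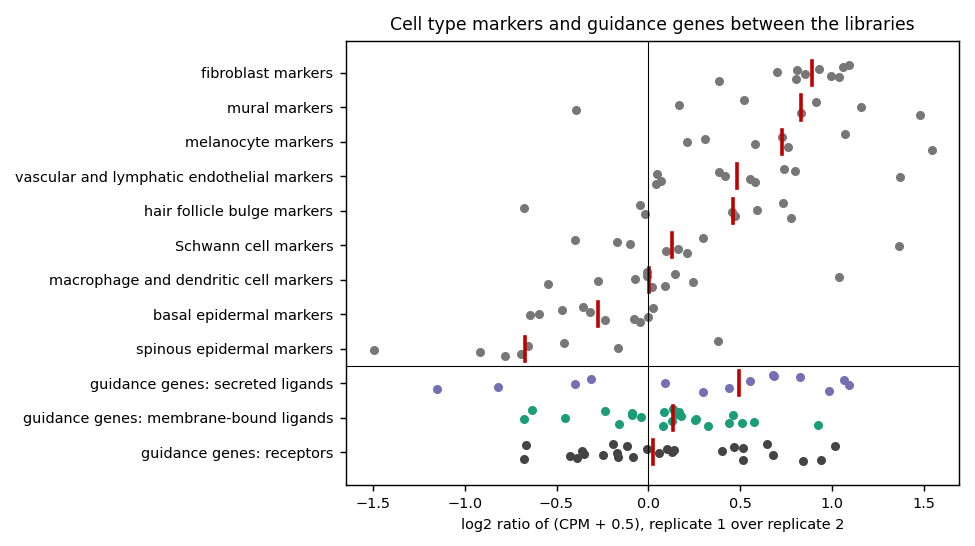
Ratio of CPM + 0.5, replicate 1 over replicate 2, on a log2 scale for the tested genes of 9 marker lists and of the guidance genes by role, with the median of each row as a red bar. Fibroblast markers have a median of 0.89 and secreted guidance ligands of 0.49, while receptors have 0.03 and spinous markers -0.67.

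Genes that work with these ligands and receptors were also measured. Of 25 other receptors and co-receptors, 16 reached 1 CPM in both libraries. The highest per length was Itgb1, the integrin chain that Sema7a binds, at 221 ± 7.35 TPM, followed by Flrt3, which binds Unc5 receptors, at 142 ± 60.9 TPM, and Erbb2, a partner of plexin B1, at 61.0 ± 14.1 TPM. Of 21 tested, 8 were higher in replicate 1 and 6 in replicate 2, with a median log2 ratio of 0.07, beside 27.2% and 16.9% of all genes tested and their median of 0.07. Flrt3 had 339 and 181 CPM, a 1.88-fold difference, and Cd72, a Sema4d receptor of B cells, had 2.10 and 0.956 CPM. Timd2, named as a Sema4a receptor, had no count.

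Of 24 semaphorin and plexin effectors, 22 reached 1 CPM in both libraries. Cfl1, the actin-severing protein cofilin, had 936 ± 90.6 TPM, the GTPase Rac1 had 352 ± 6.40 TPM, and Rras, a small GTPase that plexins switch off, had 82.3 ± 8.97 TPM. Crmp1, a mediator of Sema3a signals in neurons, had no count in either library. Of 23 tested, 10 were higher in replicate 1 and 4 in replicate 2, at a median of 0.12, and the largest ratios belonged to scarce genes, Dpysl4 at 1.53 and 0.537 CPM and Rnd1 at 2.97 and 1.46 CPM.

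Eph and ephrin effectors were nearly all present, since 21 of 22 reached 1 CPM in each library. Sdcbp, a PDZ adaptor of ephrin-B tails, had 354 ± 39.9 TPM, the junction protein Afdn, which binds Eph receptors, had 124 ± 42.5 TPM, and Adam10, the protease that sheds ephrins, had 70.4 ± 0.375 TPM. Of the 22 tested, 9 were higher in replicate 1 and 6 in replicate 2, at a median of 0.12. The largest ratios were those of Kalrn at 63.0 and 36.9 CPM, and of the adaptor Grb10 at 45.65 and 27.3 CPM.

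All 14 Slit and Robo effectors and Slit-binding proteins reached 1 CPM in both libraries. The cell surface proteoglycan Sdc1 had 366 ± 86.0 TPM, the Slit-binding dystroglycan Dag1 had 118 ± 13.2 TPM, and the actin regulator Vasp had 100.5 ± 20.6 TPM. Higher in replicate 1 were 6 genes and higher in replicate 2 were 4, at a median of 0.06, with Srgap3, a GTPase-activating protein that binds Robo, at 13.6 and 7.82 CPM and Enah at 60.4 and 39.9 CPM. No gene of the 4 companion lists passed edgeR's exact test with Benjamini-Hochberg adjustment.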

How the data were processed

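Per the submitters' processing notes, the authors counted reads per gene with featureCounts on build mm39. The aligner, annotation release, strand setting and treatment of multiply mapped reads were not given in the sources used here. The deposited values are raw counts per gene and a gene length in bases, 1 library per file, made from ribosome-depleted total RNA per the labels' protocols.

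CPM used the total of all counts, and TPM the deposited length. At 1 CPM a gene had 36.7 counts in replicate 1 and 33.5 in replicate 2. Intervals are exact (Clopper-Pearson) at 95%. Neither they nor the floor of 3 counts cover more than counting error, because no molecular identifiers separate PCR copies. With 1 library on each side of the ratio no quasi-likelihood fit or DESeq2 test could be fitted. edgeR's exact test with the common dispersion of an intercept-only fit was the alternative. That dispersion came from the same 2 libraries, and their spread may in part be technical. The binomial p-values cover counting error only.

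Values were given for the 3 highest genes and the lowest of each class by mean TPM, for differences of 2-fold or more, and for genes without a count, and in the companion lists for the 3 highest genes and the 2 largest ratios. Other genes were chosen after their values were seen. Members, lists and rules were chosen with earlier results of these data known. Promoter windows are from RefSeq on GRCm38.p6, and exon overlaps from GENCODE release M21 on GRCm38. No coordinates of mm39 are given. Software was Python 3.11.15, numpy 2.4.6, pandas 2.3.3, scipy 1.17.1, R 4.3.3, edgeR 4.0.16 and DESeq2 1.42.0 (size factors only).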

Additional observations from a re-analysis of the deposited data

How the results depend on the processing

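The number of guidance genes detected was 55 at 1 CPM, and 58, 39 and 52 at 0.5 CPM, 10 CPM and 1 TPM. It was 56 without replicate 1 and 56 without replicate 2. The number past the binomial test, 46, became 0 with edgeR's exact test (0 in each direction), which adds the spread between these same libraries to counting error. With TMM factors 6 calls changed and with DESeq2 size factors 9. The log2 ratio of Plxna2, not called in any fit, turned to -0.018 with TMM, -0.025 with DESeq2 and -0.018 with edgeR, and that of Sema6d to -0.0019 with DESeq2. For class 4 over class 3 semaphorins the alternatives gave 0.17 (summed CPM), 0.20 (mean log2) and 0.70 (GENCODE transcript lengths, added after seeing the data). The same settings gave 0.69, 0.65 and 1.14 for B over A plexins, -0.55, 1.91 and -0.59 for EphB over EphA, and 0.64, -0.51 and -0.29 for ephrin-B over ephrin-A. Without the highest member of each class, B over A plexins was -0.32 and ephrin-B over ephrin-A -0.69. Single libraries gave 0.36 to 0.53, 0.81 to 1.08, -0.99 to -0.70 and -0.63 to -0.62 for these 4 contrasts. With TMM and DESeq2 factors the other receptors higher in replicate 1 numbered 5 and 5, not 8, and the plexin effectors higher in replicate 2 numbered 8 and 9, not 4. No paired analysis was possible because the series has 1 group. Without the minimum of 10 counts, 46 guidance genes were called, and at under 10 counts in total an interval is too wide to fix the size of a difference (for Epha5, a ratio from 0.0026 to 0.851).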
